A study of Homo sapiens with 9 samples.

Results

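Glycolysis and the response to low oxygen were followed through 36 genes among the 56823 to which reads were summed. The genes were taken by name for their known roles, though with earlier results of these data known. Of these, 24 encode glucose transporters, the enzymes from hexokinase to lactate dehydrogenase, lactate transporters and regulators of the flow, and are called glycolytic members here. The other 12 belong to the pathway of the hypoxia-inducible factors (HIF) and are called HIF members. All 24 glycolytic members and 11 of the 12 HIF members passed the filter on low counts, and CA9, a carbonic anhydrase, did not. The 9 libraries hold total RNA of H1975 cells, which derive from a non-small cell carcinoma of the human lung. All of them, controls included, carry dCas9-KRAB, a Cas9 that cannot cut joined to the KRAB repressor domain, under a doxycycline-responsive promoter (TRE), and all received 4 ug/ml doxycycline for 72 h. The libraries labelled TRIDENT gRNA1 (3) and TRIDENT gRNA2 (3) have guides against the long noncoding RNA TRIDENT, and the 3 controls have a non-targeting (NT) guide. The labels do not say whether the line is a single clone or whether the replicates are separate cultures, and p-values here weigh differences only against the variation among these 9 libraries, which may be technical.

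Glycolysis splits glucose into pyruvate through a chain of enzymes, and lactate dehydrogenase then turns pyruvate into lactate, which leaves the cell through monocarboxylate transporters. Many tumours, lung cancers among them, run this path at a high rate even when oxygen is present. HIF1A, the regulated subunit of hypoxia-inducible factor 1, is marked for destruction by prolyl hydroxylases as long as oxygen is there. When it persists, it pairs with ARNT and raises the transcription of most glycolytic enzymes and of genes for vessel growth, mitophagy and matrix synthesis.

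The libraries held 16918432 to 26466536 reads. Mitochondrial genes took 5.64% to 6.53% of the reads with gRNA1, 5.71% to 6.12% with gRNA2 and 5.3% to 5.6% in the controls, so all libraries of both guides lay above all controls, and the part of this in the results below was not tested. Replicate 3 of gRNA2 was the shallowest and stood apart on the second principal component of all genes, at 39.3 against -18.6 to 9.28 in the other libraries, and calls that ended without it are named with the gene. LINC02861, which RefSeq lists under the synonym TRIDENT (gene ENSG00000262185.2, chr16:3931217-3950586, hg38, minus strand), was at 1.91 ± 0.163 CPM (counts scaled to library size) with gRNA1, 2.44 ± 0.132 with gRNA2 and 2.58 ± 0.287 in the control (mean ± SD, n = 3 each). Neither its fold of 0.745 with gRNA1 (adjusted p = 0.128) nor that of 0.945 with gRNA2 (adjusted p = 0.81) passed the threshold, so the groups below are named by their labels alone. Of the epithelial markers, EPCAM, KRT8, KRT18, KRT19 and CDH1 had group means between 347 and 520 CPM. KRT19 (0.817-fold, adjusted p = 0.00187) and KRT8 (0.875-fold, 0.0217) fell with gRNA2 and CDH1 fell with gRNA1 (0.927-fold, 0.0413), KRT19 was also lower in gRNA2 against gRNA1 (0.873-fold, 0.0229), and the other epithelial values were not called. The 14 markers of blood, fibroblasts and endothelium were at 4.79 CPM or less except COL1A1, at 13.4 to 14.8, and CD3E, COL3A1, ITGAM and LUM were at or near 0. Among those 14, CDH5, an endothelial cadherin, was called higher with both guides, at 2.69 CPM with gRNA1 and 2 with gRNA2 against 0.858 in the control, and the part of these marker differences in the results below was not tested.

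With gRNA2 a gene was called lower at every step of the glycolytic chain. The leading gene of a step is the one with the highest level per transcript length in the control. It fell at all 10 steps from hexokinase to pyruvate kinase, and LDHA, a lactate dehydrogenase subunit, fell to 0.674-fold. The calls of HK1 at hexokinase and PFKP at phosphofructokinase ended when some single libraries were left out, as given below. That of PFKP also ended in a fit with a transcript length offset (adjusted p = 0.105). The offset corrects each gene for the average length of its transcripts in each library. HK2, PFKL and PFKM, at the same steps, were not called with gRNA2. Of the 24 glycolytic members 14 fell and 1, the glucose transporter SLC2A3, rose with gRNA2. Over all 19658 genes tested, 8.44% were called in that comparison, 4.75% as lower and 3.69% as higher. The median log2 change of the glycolytic members was -0.28, against 0.01 over all genes tested. A gene was called at a Benjamini-Hochberg adjusted p under 0.05 in edgeR's quasi-likelihood test of all 9 libraries.

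With gRNA1 the glycolytic member with the lowest fold was hexokinase 2 (HK2), which fell to 0.76-fold. Of the 24 glycolytic members 9 fell and 0 rose, where 7.08% of all genes were called, 3.58% as lower and 3.49% as higher. Their median log2 change was -0.11, against 0 over all genes tested, and the leading gene fell at 3 of the 10 steps. The count of 9 members lower rests on single libraries. It was 3, 4 or 3 without control replicate 1, 2 or 3, and 4, 2 or 4 without gRNA1 replicate 1, 2 or 3. It was also 3 in the fit with the transcript length offset. The leading genes that fell at 3 of the steps, PFKP, TPI1 and GAPDH, lost their calls without control replicate 1. TPI1 and GAPDH also lost theirs with the offset.

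Set directly against gRNA1, gRNA2 had 11 glycolytic members lower and 2 higher, SLC2A3 and HK2, where 6.22% of all genes were called, 3.1% as lower and 3.12% as higher. The leading gene was lower at 8 of the 10 steps, all but hexokinase and phosphofructokinase. The median log2 difference of the glycolytic members was -0.13, against 0 over all genes tested. The 2 comparisons with the control share their 3 control libraries.

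The 36 genes together took 0.825%, 0.819% and 0.823% of the reads of the gRNA1 libraries, 0.723%, 0.694% and 0.681% with gRNA2 and 0.875%, 0.849% and 0.853% in the controls. The 3 groups did not overlap, and gRNA2 was lowest. In bulk RNA, fewer cells of a kind and less RNA per cell cannot be told apart. The mean log2 CPM of the glycolytic members, relative to the control mean of each gene, was -0.0962, -0.125 and -0.0868 with gRNA1, -0.17, -0.237 and -0.268 with gRNA2 and 0.0315, -0.0181 and -0.0134 in the controls. Every gRNA2 library therefore lay below every gRNA1 library, and every gRNA1 library below every control. Within the gRNA2 libraries 19, 21 and 22 of the 24 genes lay below the control mean, against 21, 21 and 18 with gRNA1 and 8, 18 and 16 in the controls. Over all genes tested, 50.1% had a log2 change below 0 with gRNA1 and 47.8% with gRNA2. For the glycolytic members these shares were 83.3% and 91.7%. The share over all genes was not taken by library.

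**Figure D1:**
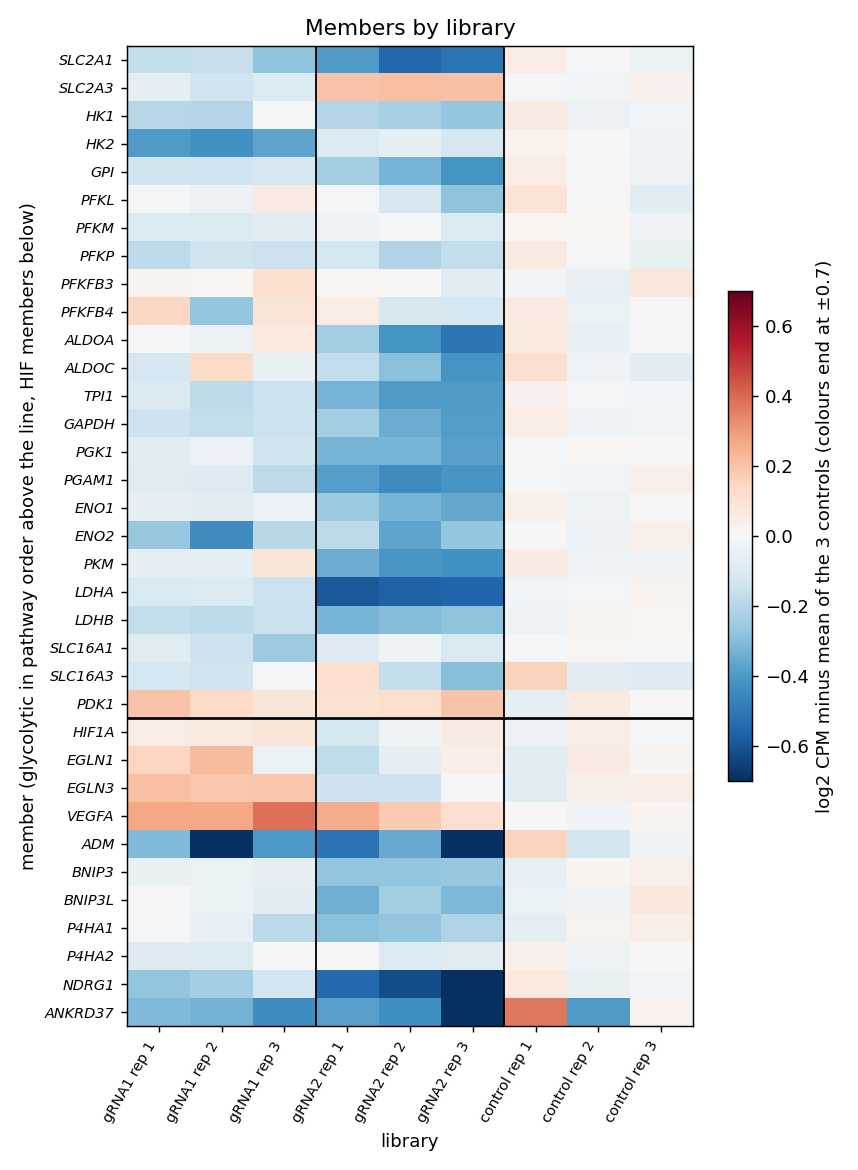
Log2 CPM of each tested member (rows, glycolytic in pathway order above the black line, HIF members below it) in each library (columns), minus the mean of the 3 controls. The gRNA2 columns are blue in most rows, while SLC2A3, PDK1 and VEGFA are red there. HK2 is darker in the gRNA1 columns than in the gRNA2 columns.

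The core letters that HIF binds, ACGTG or GCGTG, were looked up in the 250 bases before each start site in the RefSeq promoter table (GRCh38.p14), on both strands, so also as CACGT or CACGC. The table held 58 such windows for 31 of the 36 genes and none for SLC2A3, SLC16A1, VEGFA, BNIP3L and NDRG1. ACGTG was in 22 of the 58 windows (37.9%), against 18.5% of all 35116 windows, and GCGTG in 17 (29.3%), against 32.2%. Either was in 33 windows (56.9%), against 43.2%, and the symmetric CACGTG, which holds a match on each strand, was in 8 (13.8%), against 6.34%. At least 1 window with either was found for 25 of the 31 genes and none for SLC2A1, PGAM1, PKM, LDHB, EGLN3 and P4HA2. A match is a run of letters and was not tested as a binding site. The members in the table with the lowest adjusted p against the control were, in order, LDHA, HK2, PGAM1 and TPI1. The windows of LDHA, HK2 and TPI1 are given below, read 5′ to 3′ on the plus strand with matches in capitals. PGAM1 is not shown, since its window lies 1658 bases from the start of its most abundant transcript. For the windows shown this distance is 3 bases for LDHA, 146 for HK2 and 0 for TPI1. The printed LDHA window (chr11:18394313-18394562) has 5 matches, 4 of them in a pair of CACGTG, the printed HK2 window (chr2:74833877-74834126) has 3, and the printed TPI1 window (chr12:6867281-6867530) has 0. Each of these genes has 2 windows in the table, and the one nearest the start of its most abundant transcript is printed. The windows not printed reach 6 matches for HK2 and 2 for TPI1.
LDHA: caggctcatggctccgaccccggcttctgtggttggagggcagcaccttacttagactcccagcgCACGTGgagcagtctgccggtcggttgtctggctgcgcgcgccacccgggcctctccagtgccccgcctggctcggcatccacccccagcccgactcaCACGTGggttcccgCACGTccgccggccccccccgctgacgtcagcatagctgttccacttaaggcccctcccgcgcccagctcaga
HK2: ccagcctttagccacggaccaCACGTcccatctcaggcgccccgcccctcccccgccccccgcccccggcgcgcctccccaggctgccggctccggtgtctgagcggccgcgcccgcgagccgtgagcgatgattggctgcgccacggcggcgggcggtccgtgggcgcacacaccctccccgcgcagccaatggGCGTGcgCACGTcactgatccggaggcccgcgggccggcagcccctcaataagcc
TPI1: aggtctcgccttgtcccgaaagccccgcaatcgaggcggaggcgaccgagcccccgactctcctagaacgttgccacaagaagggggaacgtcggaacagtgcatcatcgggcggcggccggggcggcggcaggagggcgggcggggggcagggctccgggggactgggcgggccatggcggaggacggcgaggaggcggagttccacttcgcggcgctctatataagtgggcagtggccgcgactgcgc

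At the first step, glucose uptake, the pair of transporter genes moved in opposite directions with gRNA2. SLC2A1 encodes GLUT1, the main glucose carrier of many tumour cells (chr1:42925375-42959176, hg38, minus strand). It had 62.9, 63.1 and 58.1 CPM with gRNA1, 53.7, 48.3 and 49.5 with gRNA2 and 73.1, 70.3 and 68.5 in the controls. All libraries of each guide lay below all controls, and all of gRNA2 below all of gRNA1. SLC2A1 fell to 0.87-fold with gRNA1 (95% interval 0.806 to 0.938, adjusted p = 0.0288) and to 0.716-fold with gRNA2 (0.663 to 0.773, adjusted p = 7.66e-05), and it was 0.823-fold in gRNA2 against gRNA1 (adjusted p = 0.00531). The gRNA1 call ended without any 1 of the 3 controls or 3 gRNA1 libraries (adjusted p 0.0571 to 0.108) and with the length offset (0.165), and the call between the guides ended with the length offset (0.093). SLC2A3, which encodes the high-affinity carrier GLUT3, had 64.8, 61.4 and 63.3 CPM with gRNA1, 77.9, 78.5 and 78.3 with gRNA2 and 67.2, 66.8 and 69.2 in the controls. The gRNA2 libraries were the highest and the gRNA1 libraries the lowest, with no overlap between any groups. SLC2A3 rose 1.15-fold with gRNA2 (1.09 to 1.22, adjusted p = 0.00487) and was 1.24-fold in gRNA2 against gRNA1 (adjusted p = 0.000318), while 0.932-fold with gRNA1 missed the threshold (adjusted p = 0.14). Its rise with gRNA2 was not called with the length offset (adjusted p = 0.174), and 30.4% of its 31-mers also occur in other genes, most of them in the near-identical SLC2A14. On the TPM scale, which divides by length, SLC2A1 made up 60.1% ± 0.981 of the pair with gRNA1, 50.8% ± 0.703 with gRNA2 and 61.5% ± 2.48 in the control (SD, n = 3 each). With 3 against 3 libraries an exact permutation test cannot go below p = 0.1, so the shares of such pairs are given without a test.

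Hexokinases trap glucose in the cell as glucose 6-phosphate, and HK2 differed between the guides. HK2, the inducible form found on the outer mitochondrial membrane (chr2:74833981-74893359, hg38, plus strand), had 126, 124 and 129 CPM with gRNA1, 156, 159 and 154 with gRNA2 and 169, 167 and 164 in the controls. The gRNA1 libraries lay far below the other groups, and the gRNA2 libraries just below the controls. HK2 fell to 0.76-fold with gRNA1 (0.721 to 0.8, adjusted p = 1.42e-05) and was 0.938-fold with gRNA2 (0.89 to 0.987, adjusted p = 0.119). In gRNA2 against gRNA1 it was 1.23-fold (1.17 to 1.3, adjusted p = 0.000158). Both calls of HK2 held in every alternative run. Its pseudogene HK2P1 shares 15.5% of its 31-mers and held 0 reads in every library. HK1, the constitutive form, had 177, 176 and 202 CPM with gRNA1, 176, 173 and 169 with gRNA2 and 212, 198 and 201 in the controls. The gRNA2 libraries lay below all controls, while gRNA1 replicate 3 lay among them. HK1 fell to 0.849-fold with gRNA2 (0.788 to 0.915, adjusted p = 0.0104), a call that ended without control replicate 1 (0.0503) or gRNA2 replicate 2 (0.051), and was 0.91-fold with gRNA1 (adjusted p = 0.122). HK2 made up 32.3% ± 1.25 of the TPM of the pair with gRNA1, 39.3% ± 0.511 with gRNA2 and 37.0% ± 0.366 in the control (SD, n = 3 each), and no gRNA1 library reached the others.

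GPI, the isomerase that makes fructose 6-phosphate, had 185, 185 and 187 CPM with gRNA1, 172, 162 and 152 with gRNA2 and 210, 201 and 198 in the controls. The 3 groups did not overlap. GPI fell to 0.799-fold with gRNA2 (0.749 to 0.853, adjusted p = 0.000552), and 0.913-fold with gRNA1 missed the threshold (adjusted p = 0.088). Its call between the guides (0.875-fold, adjusted p = 0.0178) ended when library 1 or 2 of gRNA1 or library 2 or 3 of gRNA2 was left out (0.0534 to 0.0686) and with the length offset (0.14). Phosphofructokinase commits the sugar to the chain, and of its 3 subunit genes PFKP, the platelet type, was the most abundant. PFKP had 157, 162 and 161 CPM with gRNA1, 164, 154 and 159 with gRNA2 and 186, 177 and 172 in the controls. Both guides lay below all controls and overlapped each other. It fell to 0.897-fold with gRNA1 (adjusted p = 0.0282) and 0.89-fold with gRNA2 (adjusted p = 0.0183), at 0.993-fold in gRNA2 against gRNA1 (0.936 to 1.05). The gRNA1 call of PFKP ended without control replicates 1 or 2 or any of the 3 gRNA1 libraries (0.0585 to 0.121). The gRNA2 call ended when control 1 or 2 or library 2 or 3 of gRNA2 was left out (0.0515 to 0.11) and with the length offset (0.105). The liver form PFKL averaged 48.7 ± 1.82 CPM with gRNA1, 44.3 ± 4.18 with gRNA2 and 48.6 ± 3.01 in the control (SD, n = 3 each). The muscle form PFKM averaged 69 ± 0.499 CPM with gRNA1, 71.1 ± 2.12 with gRNA2 and 73.4 ± 1.1 in the control (SD, n = 3 each). Neither was called in any comparison. PFKFB3 and PFKFB4, which make the activator fructose 2,6-bisphosphate, were not called either, with group means of 29 to 30.5 and 8.17 to 8.51 CPM. The folds of PFKFB3 had intervals of 0.95 to 1.12 with gRNA1 and 0.907 to 1.07 with gRNA2.

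In the middle of the chain ALDOA, the aldolase that splits the sugar, was lower with gRNA2 alone among the guides set against the control. ALDOA had 521, 511 and 551 CPM with gRNA1, 444, 394 and 369 with gRNA2 and 552, 504 and 521 in the controls. The gRNA1 libraries lay within the controls and all gRNA2 libraries below both. It fell to 0.766-fold with gRNA2 (0.704 to 0.834, adjusted p = 0.00109), was 1-fold with gRNA1 (0.923 to 1.09) and was 0.763-fold between the guides (adjusted p = 0.000884). The ALDOA values are uncertain, since 53.6% of the 31-mers of ALDOA occur in other genes, 38.9% in the overlapping gene ENSG00000285043. ALDOC, the brain form, held a few percent of aldolase TPM and was at 0.823-fold with gRNA2 (adjusted p = 0.0652). TPI1, which interconverts the triose phosphates, had 233, 219 and 224 CPM with gRNA1, 199, 189 and 189 with gRNA2 and 255, 247 and 246 in the controls. The groups did not overlap, and gRNA2 was lowest. TPI1 fell to 0.905-fold with gRNA1 (adjusted p = 0.029) and 0.772-fold with gRNA2 (0.732 to 0.816, adjusted p = 3.76e-05), and was 0.854-fold between the guides (adjusted p = 0.00185). The gRNA1 call of TPI1 ended with the length offset (0.0896) and without any 1 of the 3 controls, gRNA1 replicates 2 or 3 or gRNA2 replicate 2 (0.059 to 0.152). Other genes share 17.7% of the 31-mers of TPI1, with 16.1% found in TPI1P1.

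**Figure D2:**
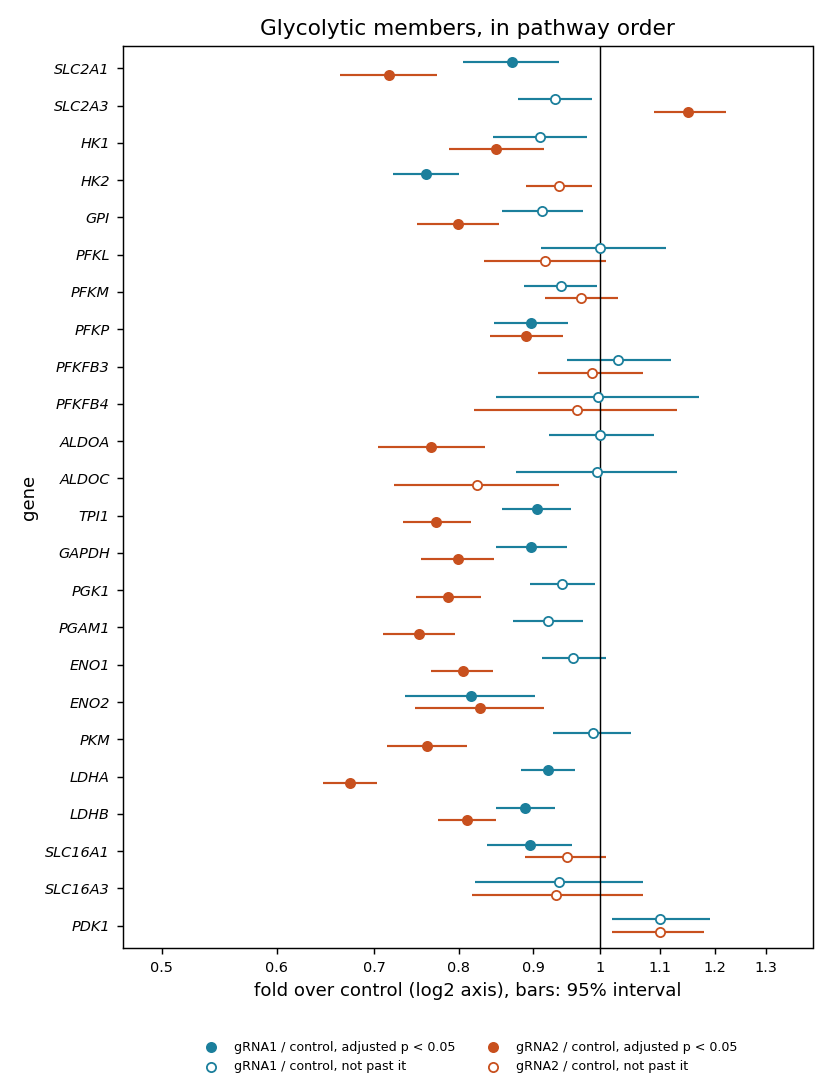
Fold of each glycolytic member over the control with gRNA1 (teal) and gRNA2 (orange) on a log2 axis, with 95% intervals over 3 libraries a group, filled where the adjusted p was under 0.05. From ALDOA to LDHB the gRNA2 points lie left of the gRNA1 points except at ENO2, while at HK2 the gRNA1 point lies left.

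GAPDH carries out the oxidation that yields NADH, and it had the highest TPM of the chain in the control, at 1100 ± 36.8 (SD, n = 3). It had 1490, 1460 and 1480 CPM with gRNA1, 1400, 1290 and 1250 with gRNA2 and 1710, 1610 and 1620 in the controls. The groups did not overlap. GAPDH, often used as a reference gene, fell to 0.897-fold with gRNA1 (0.848 to 0.95, adjusted p = 0.0252) and to 0.799-fold with gRNA2 (0.754 to 0.846, adjusted p = 0.000188). Its gRNA1 call ended with the length offset (0.153) and without control replicates 1 or 3 or any of the 3 gRNA1 libraries (0.05 to 0.108). Its call between the guides (0.89-fold, adjusted p = 0.0178) ended without gRNA1 replicate 1 or gRNA2 replicates 2 or 3 (0.0688 to 0.0891). Other genes share 29.1% of the 31-mers of GAPDH, with 11.7% found in ENSG00000269968. PGK1, which makes the first ATP of the chain, had 350, 359 and 335 CPM with gRNA1, 294, 294 and 283 with gRNA2 and 366, 372 and 368 in the controls. The groups did not overlap here either. PGK1 fell to 0.787-fold with gRNA2 (0.748 to 0.829, adjusted p = 4.68e-05), and 0.942-fold with gRNA1 missed the threshold (adjusted p = 0.161). PGAM1, which moves the phosphate of phosphoglycerate, had 206, 206 and 193 CPM with gRNA1, 168, 161 and 165 with gRNA2 and 217, 216 and 224 in the controls. All gRNA2 libraries were below all others. PGAM1 fell to 0.751-fold with gRNA2 (0.71 to 0.795, adjusted p = 2.01e-05) and was 0.921-fold with gRNA1 (adjusted p = 0.0748). Of the 31-mers of PGAM1 35.7% occur in other genes, 27.7% in ENSG00000186076. Pseudogenes named after PGAM1 held 2.16% of the summed reads, and the gRNA2 call held with them added. They were picked by name, so ENSG00000186076 may not be among them. Between the guides PGK1 was 0.835-fold (adjusted p = 0.000492) and PGAM1 0.816-fold (adjusted p = 0.000384).

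Enolase makes phosphoenolpyruvate, and ENO1 supplied nearly all of its RNA, 98.2% of enolase TPM with gRNA1, 97.6% with gRNA2 and 97.9% in the control. ENO1 had 961, 953 and 978 CPM with gRNA1, 840, 801 and 786 with gRNA2 and 1030, 982 and 1000 in the controls. The gRNA2 libraries stood well below, and the gRNA1 libraries just below the controls. ENO1 fell to 0.805-fold with gRNA2 (0.766 to 0.845, adjusted p = 6.23e-05), was 0.959-fold with gRNA1 (0.913 to 1.01) and was 0.84-fold between the guides (adjusted p = 0.000388). ENO2, the neuronal form, had 25.8, 22.9 and 27.1 CPM with gRNA1, 27.3, 24 and 25.6 with gRNA2 and 31, 30.1 and 31.8 in the controls. It fell to 0.815-fold with gRNA1 (adjusted p = 0.0191) and to 0.827-fold with gRNA2 (adjusted p = 0.0245), with the guides overlapping. Its gRNA1 call ended when control 1 or 3 or library 1 or 2 of gRNA1 was left out (0.0515 to 0.1). Its gRNA2 call ended with the length offset (0.434) and without any 1 of the 3 controls or gRNA2 replicates 2 or 3 (0.0554 to 0.14). PKM, pyruvate kinase, had 904, 900 and 1000 CPM with gRNA1, 742, 714 and 704 with gRNA2 and 983, 924 and 930 in the controls. The gRNA1 libraries spread across the controls, and the gRNA2 libraries lay below both. PKM fell to 0.761-fold with gRNA2 (0.714 to 0.811, adjusted p = 9.13e-05), was 0.99-fold with gRNA1 (0.929 to 1.05) and was 0.769-fold between the guides (adjusted p = 0.000144). The transcript of the M2 form, the one typical of proliferating cells, had 275 ± 6.16 TPM with gRNA1, 214 ± 1.72 with gRNA2 and 268 ± 11.2 in the control (SD, n = 3 each). The transcript of the M1 form had 4.02 ± 0.864 TPM with gRNA1, 3.08 ± 1.36 with gRNA2 and 4.89 ± 1.76 in the control (SD, n = 3 each). M2 was the far more abundant of this pair of transcripts in every group. PKM as a whole had 493 TPM with gRNA1, 407 with gRNA2 and 498 in the control. Its other transcripts were not assigned to a form, so the share of each form in PKM is not known.

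At the end of the path LDHA had the lowest adjusted p of any member. LDHA and LDHB encode the subunits of the enzyme that interconverts pyruvate and lactate, LDHA the one that predominates in muscle and tumours and LDHB the one that predominates in heart. LDHA (chr11:18394388-18408425, hg38, plus strand), whose RefSeq start site follows the first window printed above, had 1110, 1110 and 1070 CPM with gRNA1, 791, 802 and 810 with gRNA2 and 1170, 1180 and 1210 in the controls. The groups did not overlap, and the gap between gRNA2 and the others was wide against the spread within a group. LDHA fell to 0.674-fold with gRNA2 (0.645 to 0.703, adjusted p = 2.66e-07) and to 0.921-fold with gRNA1 (0.883 to 0.961, adjusted p = 0.0239), and was 0.731-fold between the guides (0.701 to 0.763, adjusted p = 7.06e-07). Its gRNA1 call ended with the length offset (0.168), with protein-coding genes alone (0.0607) and without control replicates 2 or 3, any of the 3 gRNA1 libraries or gRNA2 replicate 2 (0.0559 to 0.114). LDHB had 363, 359 and 366 CPM with gRNA1, 326, 331 and 336 with gRNA2 and 398, 415 and 412 in the controls. Its groups did not overlap either. LDHB fell to 0.888-fold with gRNA1 (adjusted p = 0.00451) and to 0.811-fold with gRNA2 (adjusted p = 5.85e-05), and both calls ended with the length offset (0.386 and 0.0556). Its call between the guides (0.913-fold, adjusted p = 0.0223) ended with the length offset (0.28) and when library 1 or 2 of gRNA1 or library 1 or 2 of gRNA2 was left out (0.0652 to 0.118). LDHA made up 70.5% ± 0.527 of the TPM of the pair with gRNA1, 65.5% ± 2.43 with gRNA2 and 70.8% ± 0.501 in the control (SD, n = 3 each). Of the 31-mers of LDHB 31.4% occur in other genes, 30.6% in ENSG00000285854.

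**Figure D3:**
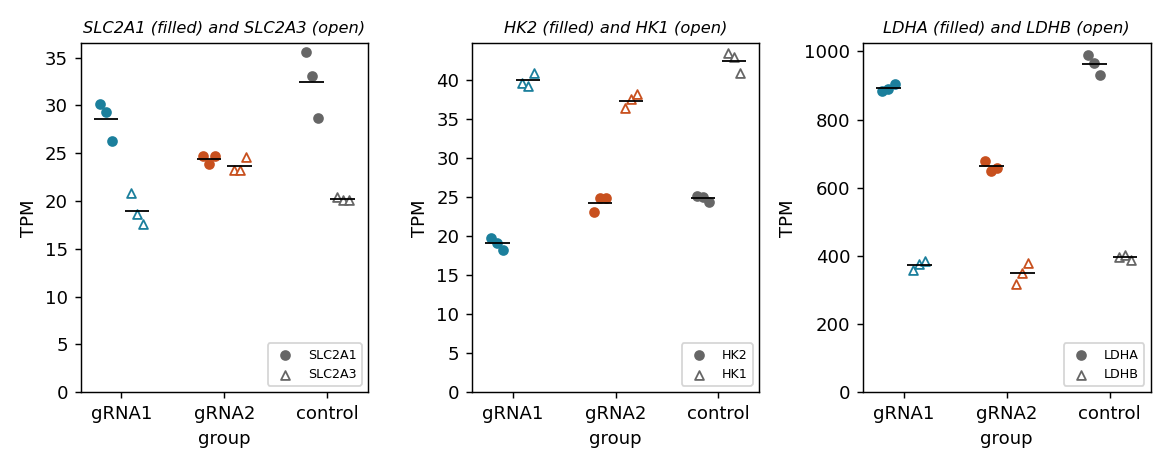
TPM of paired genes by group, each point 1 library and each bar the mean of 3, for the glucose transporters, the hexokinases and the lactate dehydrogenase subunits. The SLC2A1 and SLC2A3 points meet in gRNA2, HK2 is lowest in gRNA1, and LDHA is lowest in gRNA2.

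The lactate transporters and PDK1 gave 1 call, in SLC16A1 with gRNA1. SLC16A1, which encodes the lactate carrier MCT1, had 103, 98.7 and 91.4 CPM with gRNA1, 102, 107 and 101 with gRNA2 and 108, 110 and 109 in the controls. Both guides lay below all controls and overlapped each other. SLC16A1 fell to 0.895-fold with gRNA1 (0.837 to 0.957, adjusted p = 0.0465) and was 0.95-fold with gRNA2 (0.889 to 1.01). The gRNA1 call of SLC16A1 ended with RLE normalization (0.0513), the length offset (0.513), protein-coding genes alone (0.0791) or a fit of only those groups (0.0583). It also ended without any 1 of 7 libraries, which were the 3 controls, gRNA1 replicates 2 or 3 and gRNA2 replicates 2 or 3 (0.051 to 0.164). SLC16A3, which encodes the exporter MCT4, averaged 64 ± 3.13 CPM with gRNA1, 63.4 ± 9.48 with gRNA2 and 68.4 ± 6.92 in the control (SD, n = 3 each). Its folds of 0.937 with gRNA1 (0.821 to 1.07, adjusted p = 0.592) and 0.933 with gRNA2 (0.817 to 1.07, adjusted p = 0.548) missed the threshold. PDK1 encodes a pyruvate dehydrogenase kinase. It averaged 52.8 ± 2.12 CPM with gRNA1, 52.8 ± 1.82 with gRNA2 and 47.9 ± 2.12 in the control (SD, n = 3 each). All libraries of both guides were above all controls, but its 1.1-fold difference missed the threshold with gRNA1 (1.02 to 1.19, adjusted p = 0.108) and with gRNA2 (1.02 to 1.18, adjusted p = 0.104).

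Among the HIF members a stress-responsive gene, mitophagy receptors and a collagen hydroxylase fell with gRNA2, and VEGFA rose with both guides. With gRNA2 4 of the 11 tested fell, NDRG1, BNIP3, BNIP3L and P4HA1, and 1 rose, VEGFA. Of these gRNA2 calls only that of P4HA1 held in every alternative run. The median log2 change was -0.26, against 0.01 over all genes tested. With gRNA1 NDRG1 fell and VEGFA rose, with a median of -0.06 against 0. In gRNA2 against gRNA1 4 were lower and 0 higher, at a median of -0.17 against 0. Over all genes tested 4.75% were lower and 3.69% higher with gRNA2, 3.58% and 3.49% with gRNA1, and 3.1% and 3.12% between the guides. The transcript length offset left 0 lower with gRNA1, 2 with gRNA2 and 1 between the guides, and the 1 called lower with gRNA1 was 0 when control 1 or 3 or library 1 or 2 of gRNA1 was left out.

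The oxygen-sensing members did not differ from the control beyond the threshold. HIF1A itself had 413, 419 and 424 CPM with gRNA1, 367, 391 and 416 with gRNA2 and 388, 413 and 396 in the controls. The gRNA2 libraries spread across the controls. Its folds were 1.05 with gRNA1 (0.984 to 1.12, adjusted p = 0.382) and 0.98 with gRNA2 (0.919 to 1.04, adjusted p = 0.735). HIF1A is controlled mainly at the protein, which was not measured here. EGLN1, the main HIF prolyl hydroxylase, averaged 44.7 ± 4.27 CPM with gRNA1, 39.5 ± 3.05 with gRNA2 and 41.3 ± 2.08 in the control (SD, n = 3 each). EGLN3, a hydroxylase that is itself a HIF target, had 10.4, 10.3 and 10.3 CPM with gRNA1, 8.17, 8.17 and 8.95 with gRNA2 and 8.51, 9.29 and 9.33 in the controls. It was highest in the gRNA1 libraries and overlapped between gRNA2 and the control. EGLN3 was 0.81-fold in gRNA2 against gRNA1 (0.72 to 0.912, adjusted p = 0.0364), a call that ended without control replicates 2 or 3, any of the 3 gRNA1 libraries or gRNA2 replicates 1 or 2 (0.0554 to 0.153). It also ended in DESeq2 (0.121), without the filter (0.0673), with the length offset (0.12) and with only those groups fitted (0.0621).

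VEGFA, the growth factor of blood vessels (chr6:43770184-43786487, hg38, plus strand), rose with both guides. It had 62.5, 62.6 and 67.8 CPM with gRNA1, 62.1, 58.8 and 56.3 with gRNA2 and 51.9, 51 and 52.5 in the controls. All libraries of both guides lay above all controls. VEGFA rose 1.24-fold with gRNA1 (1.15 to 1.33, adjusted p = 0.00165), a call that held in every alternative. Its 1.14-fold rise with gRNA2 (1.06 to 1.23, adjusted p = 0.0272) was not called with the length offset (0.0994) or without any 1 of the 3 controls or gRNA2 replicates 1 or 2 (0.0616 to 0.0968). In gRNA2 against gRNA1 it was 0.92-fold (0.856 to 0.988, adjusted p = 0.177). ADM, the vasodilator adrenomedullin, had low values, at 1.4 ± 0.222 CPM with gRNA1, 1.32 ± 0.225 with gRNA2 and 1.97 ± 0.204 in the control (SD, n = 3 each). Its folds of 0.712 (adjusted p = 0.164) and 0.686 (adjusted p = 0.114) missed the threshold.

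NDRG1, a stress-responsive gene that hypoxia raises strongly in many cells, had the lowest fold among the tested members with gRNA2. It had 69.3, 71.3 and 76.6 CPM with gRNA1, 57.7, 54.7 and 51.4 with gRNA2 and 88.2, 81.1 and 83.1 in the controls. The groups did not overlap, and gRNA2 was lowest. NDRG1 fell to 0.651-fold with gRNA2 (0.601 to 0.705, adjusted p = 1.31e-05) and to 0.861-fold with gRNA1 (0.797 to 0.931, adjusted p = 0.0245), and was 0.756-fold between the guides (adjusted p = 0.000484). With the length offset the adjusted p was 0.0512 with gRNA2, 0.516 with gRNA1 and 0.183 between the guides. The gRNA1 call also ended when control 1 or 3 or library 1 or 2 of gRNA1 was left out (0.0722 to 0.106). BNIP3 and BNIP3L encode receptors that mark mitochondria for removal. BNIP3L had 115, 112 and 110 CPM with gRNA1, 91.1, 97.5 and 92.8 with gRNA2 and 112, 113 and 121 in the controls. All gRNA2 libraries were below all others. It fell to 0.813-fold with gRNA2 (adjusted p = 0.000962) and was 0.838-fold between the guides (adjusted p = 0.00298), with both calls ending under the length offset (0.0512 and 0.069).

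BNIP3 had 56.7, 56.9 and 56 CPM with gRNA1, 48.5, 48.6 and 48.9 with gRNA2 and 56.5, 59.6 and 60.2 in the controls, so that gRNA2 alone lay apart. Its fold was 0.827 with gRNA2 (adjusted p = 0.00123) and 0.86 between the guides (adjusted p = 0.00636). The BNIP3 values are uncertain, because its pseudogenes held 47.2% of the reads summed over both and 19.4% of its 31-mers occur in other genes. With those reads added the gRNA2 call ended (adjusted p = 0.0894). P4HA1, a collagen prolyl hydroxylase subunit, had 139, 135 and 123 CPM with gRNA1, 114, 116 and 121 with gRNA2 and 134, 142 and 144 in the controls. The gRNA1 libraries overlapped the controls and the gRNA2 libraries did not. P4HA1 fell to 0.835-fold with gRNA2 (0.777 to 0.898, adjusted p = 0.00479) and narrowly missed the threshold between the guides (0.887-fold, adjusted p = 0.0504). Its paralog P4HA2 averaged 35.4 ± 1.38 CPM with gRNA1, 35.4 ± 1.35 with gRNA2 and 36.9 ± 0.929 in the control (SD, n = 3 each), with no call. ANKRD37, a small ankyrin protein gene, averaged 1.05 ± 0.0532 CPM with gRNA1, 0.935 ± 0.135 with gRNA2 and 1.39 ± 0.374 in the control (SD, n = 3 each) and was not called. CA9 had 0 or 1 reads in every library, and no fold is given.

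**Figure D4:**
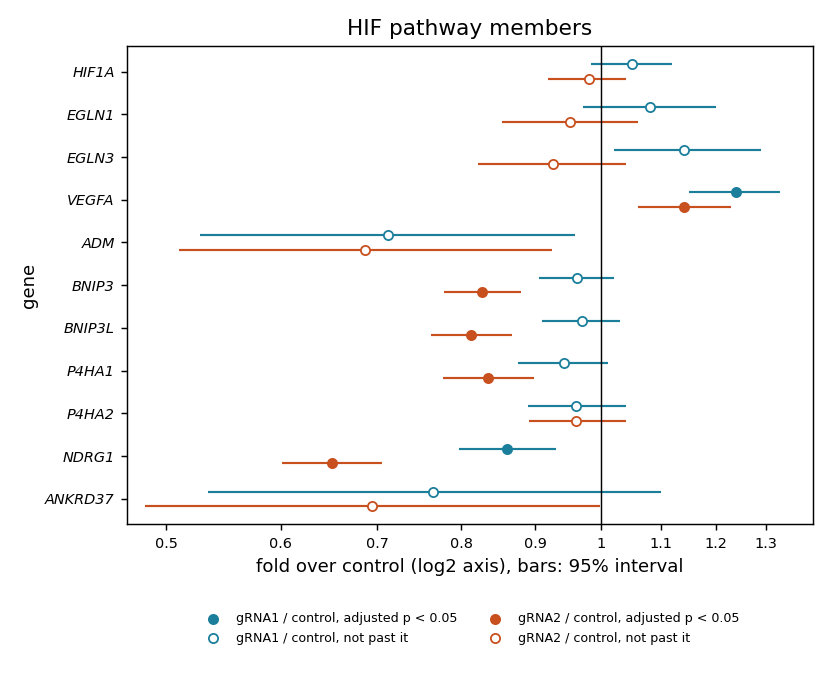
Fold of each tested HIF member over the control with gRNA1 (teal) and gRNA2 (orange) on a log2 axis, with 95% intervals over 3 libraries a group, filled where the adjusted p was under 0.05. VEGFA is right of 1 with both guides, NDRG1 is furthest left with gRNA2, and the intervals of ADM and ANKRD37 are wide.

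**Figure D5:**
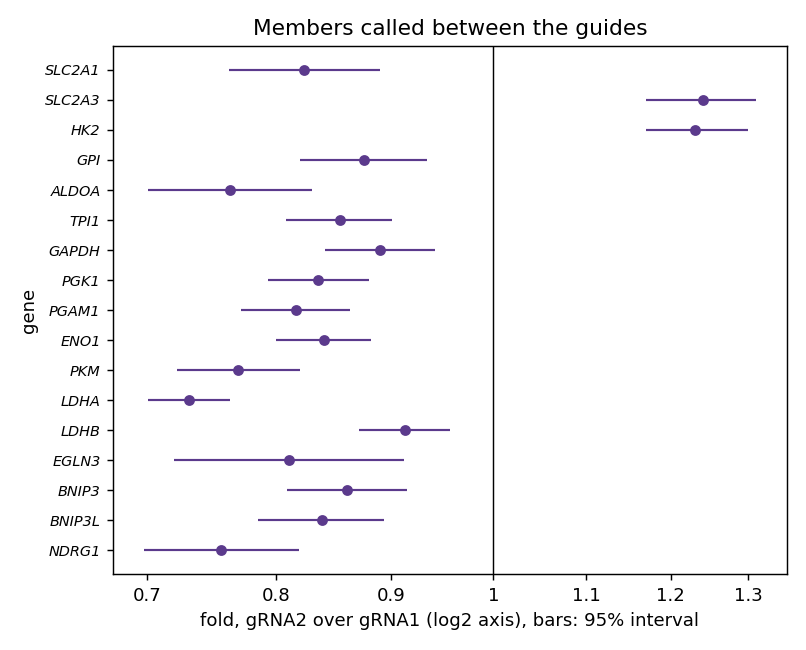
Fold in gRNA2 over gRNA1, on a log2 axis with 95% intervals over 3 libraries a group, for the members with an adjusted p under 0.05 in that comparison. SLC2A3 and HK2 lie right of 1, at 1.24 and 1.23, and the others left of it, with LDHA lowest at 0.731.

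Further genes of sugar metabolism and of the HIF pathway were taken from lists chosen by name. Their counts stand against 3.49% of all genes called higher and 3.58% lower with gRNA1, and 3.69% higher and 4.75% lower with gRNA2. Of 16 other genes of glycolysis and glycogen, 0 were called with gRNA1 and 4 were lower with gRNA2. They were GBE1 (0.862-fold, adjusted p = 0.0121), UGP2 (0.875-fold, 0.0188) and PGM1 (0.887-fold, 0.028), which act in glycogen synthesis and its supply, and glycogen synthase GYS1 (0.846-fold, 0.0303), named after its value was seen. The list median was -0.04 with gRNA1 and -0.07 with gRNA2 on the log2 scale. In gRNA2 against gRNA1 1 was higher, PFKFB2 (1.22-fold, adjusted p = 0.00368), also named after its value was seen. That count of 1 in 16 stands against 3.12% of all genes called higher there, and is too small to describe the list. In the pentose phosphate pathway the transaldolase TALDO1 fell to 0.855-fold with gRNA2 (adjusted p = 0.00968) and was 0.913-fold with gRNA1 (0.113). PGD, the dehydrogenase of phosphogluconate, was 0.867-fold in gRNA2 against gRNA1 (adjusted p = 0.0221).

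Of 29 genes of pyruvate entry and the citric acid cycle 1 was higher with gRNA1, SDHC (1.11-fold, adjusted p = 0.0282), and 4 were lower with gRNA2. A count of 1 in 29 is near the share of all genes called higher with gRNA1. Those lower were SDHB (0.89-fold, adjusted p = 0.0217), SUCLG1 (0.895-fold, 0.0303) and, named after their values were seen, CS (0.921-fold, 0.0323) and DLD (0.898-fold, 0.0463). The list median was -0.04 with gRNA1 and -0.11 with gRNA2. Among 14 other regulators of the HIF pathway ARNT, the partner of HIF1A, rose 1.2-fold with gRNA1 (adjusted p = 0.00351), and CITED2, which competes with HIF1A for its coactivators, rose 1.24-fold (0.00519). The list median was 0.04 with gRNA1 and -0.04 with gRNA2. With gRNA2 0 of the 14 were called, and EPAS1, which encodes HIF-2 alpha, was at 0.922-fold with gRNA1 (adjusted p = 0.0985) and 0.928-fold with gRNA2 (0.119). In gRNA2 against gRNA1 ARNT was 0.867-fold (adjusted p = 0.0172) and CITED2 0.78-fold (0.00216).

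Other HIF targets, 26 of 27 of them tested, showed no single direction with gRNA2. With gRNA1 8 fell and 1 rose, at a median of -0.09, and with gRNA2 6 fell and 3 rose, at a median of -0.1. LOXL2, a matrix crosslinking enzyme, averaged 213 ± 8.23 CPM with gRNA1, 172 ± 6.47 with gRNA2 and 248 ± 12.2 in the control (SD, n = 3 each). It fell to 0.86-fold with gRNA1 (adjusted p = 0.00877) and to 0.695-fold with gRNA2 (adjusted p = 1.15e-05). DDIT4, an inhibitor of mTORC1 that other stresses also induce, averaged 43.6 ± 2.5 CPM with gRNA1, 73.1 ± 5.81 with gRNA2 and 46.2 ± 2.38 in the control (SD, n = 3 each). It rose 1.59-fold with gRNA2 (adjusted p = 2.24e-05) and was 0.946-fold with gRNA1 (0.508). STC2, a secreted stanniocalcin, fell to 0.892-fold with gRNA1 (adjusted p = 0.0234) and rose 1.24-fold with gRNA2 (0.000273), and was 1.39-fold in gRNA2 against gRNA1 (9.29e-06). The riser with gRNA1 was TMEM45A (1.16-fold, adjusted p = 0.00703), named after its value was seen. TMEM45A also rose with gRNA2 (1.21-fold, adjusted p = 0.0015) and was 1.04-fold between the guides (0.528). The counts of these further lists were not recomputed without single libraries.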

How the data were processed

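Members and gene lists were chosen with earlier results of these data known. The authors quantified transcripts with Salmon 1.4.0 and name hg38, per the submitters' processing notes. The deposited tables give, per the file headers, an estimated count of reads and a TPM per transcript, beside the transcript length and effective length in bases, recorded here as signal values of the deposited tables and used for the length offset alone. The strand setting and the transcript annotation are not given in the sources used here. GENCODE 29 held 95.7% of the 211939 transcripts in each table. Their estimated counts were added up for 56823 genes and rounded to whole numbers, without the 1.26% to 1.33% of reads on unmatched transcripts. The deposited TPM values were summed to genes for levels between genes and entered no test.

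In edgeR 4.0.16 (R 4.3.3), filterByExpr kept 19658 genes, TMM scaled the libraries, and quasi-likelihood F tests (two-sided) made 3 comparisons in 1 fit of 9 libraries, with Benjamini-Hochberg adjustment over all genes and a threshold of 0.05. The biological coefficient of variation was 0.051. Intervals are 95% and come from that fit. The fit was tested on simulated data. Alternatives were RLE scaling, DESeq2 1.42.0, no filter, a replicate block, a transcript length offset, protein-coding genes alone, only the groups compared, reads of 157 pseudogenes added to their parent genes, and leaving out each library. Shared 31-mers were counted on either strand. All 36 members are accounted for, those called in any comparison by library, and of each further list the up to 3 genes with the lowest adjusted p against the control are named, except that some results are not reported here. Sums and sequence counts used pandas 2.3.3 and numpy 2.4.6 in Python 3.11.15, and figures matplotlib 3.10.9.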

Additional observations from a re-analysis of the deposited data

How the results depend on the processing

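No call of a member against the control or between the guides turned its direction in any alternative. With gRNA1 2 of the 11 called members kept their call in every alternative, HK2 and VEGFA. With gRNA2 11 of 20 did, ALDOA, ENO1, GAPDH, GPI, LDHA, P4HA1, PGAM1, PGK1, PKM, SLC2A1 and TPI1, and between the guides 10 of 17. With the transcript length offset the glycolytic members lower with gRNA1 numbered 3, and the HIF members lower 0 with gRNA1, 2 with gRNA2 and 1 between the guides, while the genes called over the whole table numbered 538, 434 and 446 in place of 1391, 1659 and 1222. Among the glycolytic members the offset ended the gRNA2 calls of SLC2A3, PFKP, ENO2 and LDHB. Leaving out 1 library gave 2 to 10 glycolytic members lower with gRNA1 and 0 to 1 HIF member. Over all genes it gave 654 to 1701 calls with gRNA1, 671 to 1817 with gRNA2 and 575 to 1215 between the guides. Values near 0 that were not called did turn sign. With the length offset PDK1 with gRNA2 was -0.03 and HIF1A with gRNA2 0.06 on the log2 scale. PKM with gRNA1 was 0.01 with protein-coding genes alone and -0.07 to 0.02 when libraries were left out in turn. In the same way ALDOA with gRNA1 ran over -0.02 to 0.05 and HIF1A with gRNA2 over -0.07 to 0.02. BNIP3 with gRNA1 was 0.12 with pseudogene reads added. The cause was not tested.

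Replicate numbers were not taken as pairs in the main fit. The deviations of same-numbered libraries from their group means correlated at -0.19 to 0.2. With 3 libraries a group these correlations cannot settle whether same-numbered libraries share a batch, and the labels do not say. With a replicate block 9 glycolytic and 1 HIF member were lower with gRNA1, 14 and 4 with gRNA2 and 11 and 3 between the guides, and the call of EGLN3 between the guides ended (adjusted p = 0.0563). Genes with few reads, such as ADM and ANKRD37, have wide intervals, and CA9 could not be fitted.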
